A study of Homo sapiens with 10 samples.

Results

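Hypoxia-inducible and glycolysis genes were followed in U2OS cells, a human osteosarcoma cell line, upon loss of histone variant H2A.Z, as its isoform H2A.Z.1, its isoform H2A.Z.2 or the pair. The 45 genes were taken by name, as subunits of the hypoxia-inducible factor (HIF), its prolyl hydroxylases, known HIF targets and glycolysis enzymes. The naming rule used no measured value, but the genes were chosen with earlier results of these data known. All 45 were among the 23089 genes of the count table, and 44 passed the filter on low counts in every comparison. The remaining one, ANGPTL4, which encodes a secreted lipase inhibitor, had 0 to 2 counts per library and was not tested. Total RNA was sequenced at day 3 after transfection of siH2A.Z.1, of siH2A.Z.2, of both, or of 1 of the control siRNAs numbered 3 and 4 (siCtrl 3 and siCtrl 4). Each of these 5 conditions had 2 libraries, so 10 in all. All libraries come from 1 cell line grown without any hypoxia treatment named in the labels, and all carry a transfected siRNA. The labels do not tie the control siRNA numbers to the control names of the siRNA list, and they name no separate experiments. Per the study's methods the U2OS samples were transfected side by side, so p-values measure the spread between these libraries, which may be technical, and not between independent experiments.

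HIF is made of an oxygen-regulated alpha subunit (HIF1A or EPAS1, which encodes HIF-2 alpha) and the constant partner ARNT. When oxygen is present, the prolyl hydroxylases EGLN1 and EGLN3 mark the alpha subunit for destruction, so that HIF is mainly controlled as a protein, which RNA counts do not show. When oxygen is low, HIF binds DNA at a short core motif and turns on genes for glucose uptake, glycolysis, pH control, blood vessel growth and collagen modification. H2A.Z is a variant of histone H2A found around gene start sites, encoded by H2AFZ (H2A.Z.1) and H2AFV (H2A.Z.2).

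The siRNAs are shown because each condition is defined by them, with the bases that pair with the guide's seed (guide positions 2 to 8) in capitals. They are the strands of the same sense as the mRNA, 5′ to 3′. The siRNA list of the study also holds a second H2A.Z.2 siRNA, marked #. The labels say siH2A.Z.2 without that mark, so the unmarked sequence was taken for this condition, which the labels do not settle. In hg38 with the GENCODE v44 annotation, the H2A.Z.1 siRNA matched the 3′UTR of H2AFZ (now H2AZ1) in exon 5 of 5, at chr4:99948214-99948232 on the minus strand. The H2A.Z.2 siRNA matched the 3′UTR of H2AFV (now H2AZ2) in exon 5 of 5, at chr7:44834295-44834313 on the minus strand. Neither had a full match in a canonical transcript of any of the 45 genes.
H2A.Z.1 siRNA: guaguggguuuUGAUUGAg
H2A.Z.2 siRNA: ggugacaguugUGUGUUGa
The 7 bases in capitals occurred in the 3′UTR of 11.1% of the 45 genes for the H2A.Z.1 siRNA (ENO2, PDK1, STC2, P4HA1 and MXI1), against 9.81% of all 19483 annotated 3′UTRs. For the H2A.Z.2 siRNA they occurred in 33.3% of the 45 genes, against 16.7% of all. These are letter matches only, and their part in the results below was not tested.

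Total counts lay between 16716990 and 26946836 per library. Levels are given as CPM (counts scaled to the library size times its TMM factor) and a gene was called up- or down-regulated when its adjusted p from edgeR's quasi-likelihood test (Benjamini-Hochberg over all genes tested) was under 0.05 and its log2 fold change was above 0.322 or below -0.322, the study's own limit. H2AFZ was at 279.7 and 279 CPM with siCtrl 3, 203 and 228 with siCtrl 4, 19.9 and 19.1 with siH2A.Z.1, 234 and 262 with siH2A.Z.2 and 22.5 and 21.9 with both siRNAs, down-regulated upon H2A.Z.1 depletion (log2 fold change -3.67 ± 0.19 (SE), adjusted p = 2.45e-04). H2AFV was at 249 and 241 CPM with siCtrl 3, 143 and 148 with siCtrl 4, 203 and 184 with siH2A.Z.1, 61.9 and 65.8 with siH2A.Z.2 and 80.3 and 70.3 with both siRNAs. Its difference upon H2A.Z.2 depletion was -1.59 ± 0.28 and missed the threshold (adjusted p = 0.0754), with siCtrl 4 below siCtrl 3. Upon combined depletion H2AFV was down-regulated (-1.35 ± 0.28, adjusted p = 0.0228). All 8 mesenchymal and osteoblast markers in the table were above 1 CPM in at least 1 library (TWIST1 had no row), with VIM at 1506 to 3544 CPM and SPARC at 1554 to 2127 CPM, while COL1A2 was at 0.191 to 1.245 CPM. Markers of 9 other cell types summed to 4.57 to 9.82 CPM, with KRT5, PECAM1 and ALB under 1 CPM in each library. The 10 proliferation genes of a fixed list moved with the control siRNA. They summed to 2983 and 3106 CPM with siCtrl 3, 1677 and 1859 with siCtrl 4, 1903 and 1941 with siH2A.Z.1, 2904 and 3166 with siH2A.Z.2, and 2478 and 2222 with both, and their part in the results was not tested. In these bulk samples, fewer expressing cells and less RNA per cell cannot be told apart.

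Per length of the canonical transcript, the most abundant of the genes in the 4 control libraries were PKM (1216 CPM per kb) and ENO1 (1132), followed by TPI1 (700.2), LDHA (337) and ALDOA (285). STC2 (0.417) and ADM (0.994) were near the bottom. Summed over the 45 genes, the level was 10398 to 11237 CPM in the controls, 10498 and 10854 CPM upon H2A.Z.2 depletion, 6843 and 6896 CPM upon H2A.Z.1 depletion, and 7308 and 7167 CPM upon combined depletion. The libraries with the H2A.Z.1 siRNA did not overlap those without it. PKM, ENO1 and LDHA held 51.9% of the summed control level and 72.2% of the difference between controls and H2A.Z.1 depletion. Without them the sum was still 4808 to 5533 CPM in the controls against 4074 and 4105 CPM upon H2A.Z.1 depletion.

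Upon H2A.Z.1 depletion, 20 of the 44 tested genes were down-regulated and 3 were up-regulated. Over all genes tested, 15.7% were called lower and 12.2% higher. The median log2 fold change of the 44 genes was -0.45, against -0.023 over all genes. Upon H2A.Z.2 depletion, edgeR called none of the 44, where 0.605% of all genes were called higher and 0.179% lower. Of the 44, 5 had an unadjusted p under 0.05, against 2223 of all 16188 genes tested, and DESeq2 called 2, against 673 of the 23089 genes of the table. The median of the 44 was -0.010. This test also missed H2AFV, the target of the H2A.Z.2 siRNA, so the lack of calls does not show a lack of effect. With the control siRNAs taken singly or as separate groups more of the 44 were called, as given in the last section. Upon combined depletion, 16 were down-regulated and 1 was up-regulated, where 9.35% of all genes were called lower and 7.77% higher, and the median was -0.40. These 3 comparisons share the 4 control libraries. The counts rested on both libraries of a depletion. The shares of all genes called with 1 of them left out are not given here. The drops below are therefore not shown to be particular to these genes. Without siH2A.Z.1 replicate 1 or 2, 7 and 6 genes were called lower upon H2A.Z.1 depletion and 1 higher in each case. EGLN1, CA12, ENO1, ENO2, PKM, LDHA and, higher, EGLN3 were called both times. Without replicate 1 or 2 of the combined depletion, 0 and 1 (PKM) were called.

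**Figure D1:**
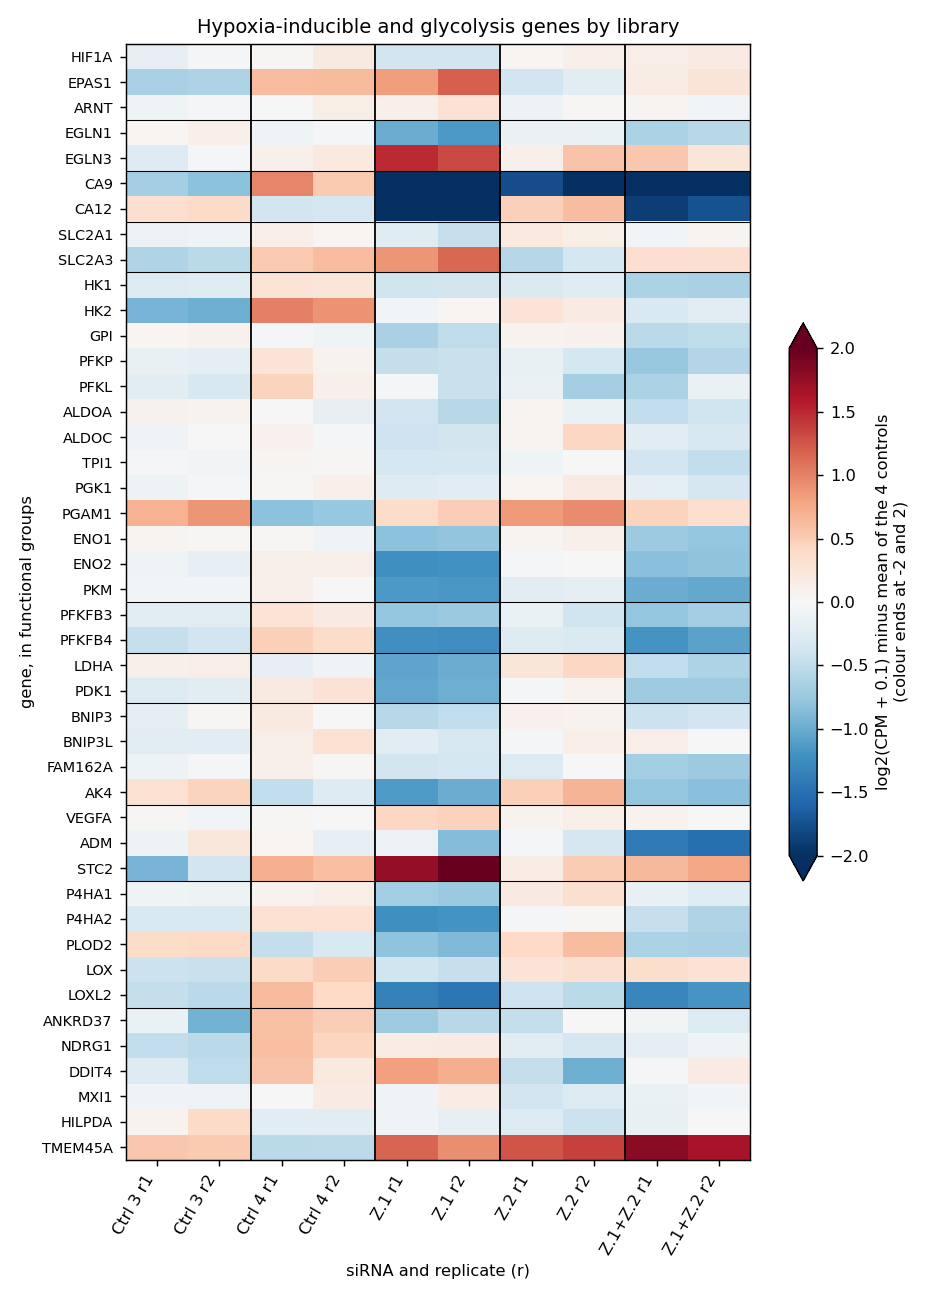
Heat map of 44 hypoxia-inducible and glycolysis genes (rows, in functional groups separated by lines) in the 10 libraries (columns). Colour is log2(CPM + 0.1) minus the mean of the 4 control libraries, ending at -2 and 2. The blue blocks at CA9, CA12, ENO1, ENO2, PKM, LDHA and PFKFB4 stand in both libraries with the H2A.Z.1 siRNA alone and in both with the 2 siRNAs together. HK2, PGAM1 and TMEM45A differ between siCtrl 3 and siCtrl 4.

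Among the HIF subunits, HIF1A (chr14:61695513-61748259, plus strand) was at 344 and 375 CPM with siCtrl 3, 390.0 and 436 with siCtrl 4, 295 and 296 with siH2A.Z.1, 396 and 412 with siH2A.Z.2 and 424 and 429.8 with both siRNAs. Both H2A.Z.1-depleted libraries lay below the other 8. HIF1A was down-regulated upon H2A.Z.1 depletion (-0.40 ± 0.11, adjusted p = 0.0384), but this call was lost in 10 of 15 alternative settings (adjusted p between 2.06e-04 and 0.207). It was higher upon combined than upon H2A.Z.1 depletion (0.55 ± 0.11, adjusted p = 0.0256), and the difference between combined and H2A.Z.2 depletion was 0.071 ± 0.11 (adjusted p = 0.724). EPAS1 was at 19.4 and 19.8 CPM with siCtrl 3, 46.8 and 47.0 with siCtrl 4, 54.4 and 69.3 with siH2A.Z.1, 23.3 and 25.9 with siH2A.Z.2 and 33.5 and 36.4 with both siRNAs. Its order was siCtrl 3, siH2A.Z.2, both siRNAs, siCtrl 4 and siH2A.Z.1, with no overlap between neighbours. With pooled controls its difference upon H2A.Z.1 depletion was 0.89 ± 0.41 (adjusted p = 0.146), while siCtrl 4 was above siCtrl 3 by 1.26 ± 0.12 (adjusted p = 8.63e-06). ARNT was at 81.1 and 83.7 CPM with siCtrl 3, 86.9 and 92.8 with siCtrl 4, 92.7 and 105 with siH2A.Z.1, 80.2 and 87.9 with siH2A.Z.2 and 89.3 and 83.1 with both siRNAs, and none of its differences was called.

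The prolyl hydroxylases moved in opposite directions. EGLN1 (chr1:231363751-231422287, minus strand), the main HIF prolyl hydroxylase in most cells, was at 69.6 and 72.8 CPM with siCtrl 3, 64.0 and 66.2 with siCtrl 4, 34.1 and 30.7 with siH2A.Z.1, 62.0 and 62.3 with siH2A.Z.2 and 43.7 and 46.2 with both siRNAs. The 2 libraries with siH2A.Z.1 alone were lowest, those with both siRNAs came next, and neither overlapped the other 6. EGLN1 was down-regulated upon H2A.Z.1 depletion (-1.08 ± 0.11, adjusted p = 0.00119) and upon combined depletion, by less (-0.58 ± 0.097, adjusted p = 0.0124). The direct comparison placed combined above H2A.Z.1 depletion by 0.49 ± 0.10 (adjusted p = 0.0294). EGLN3, itself a strong HIF target, was at 2.54 and 3.00 CPM with siCtrl 3, 3.29 and 3.51 with siCtrl 4, 8.77 and 7.81 with siH2A.Z.1, 3.30 and 4.61 with siH2A.Z.2 and 4.51 and 3.63 with both siRNAs. It was up-regulated upon H2A.Z.1 depletion (1.41 ± 0.18, adjusted p = 0.00283), in which both libraries lay above all others. Upon combined depletion it was not called (0.43 ± 0.21, adjusted p = 0.192), and it was lower there than upon H2A.Z.1 depletion (-0.999 ± 0.22, adjusted p = 0.0441).

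The largest differences were in the carbonic anhydrases, cell surface enzymes that hydrate carbon dioxide and control pH. CA9 (chr9:35673928-35681159, plus strand), a classical HIF target, had 84 and 55 counts with siCtrl 3, 238 and 190 with siCtrl 4, 1 and 2 with siH2A.Z.1, 37 and 28 with siH2A.Z.2, and 20 and 14 with both, or 3.29 and 3.00 CPM with siCtrl 3, 10.6 and 7.74 with siCtrl 4, 0.0541 and 0.0952 with siH2A.Z.1, 1.49 and 1.07 with siH2A.Z.2 and 0.893 and 0.795 with both siRNAs. The 6 depleted libraries all lay below the 4 controls. With 3 counts upon H2A.Z.1 depletion against 567 in the controls, the level was 82.1-fold lower (exact 95% interval 27.9 to 399.2, for counting error only, adjusted p = 0.00484). Upon combined depletion it was 7.34-fold lower (interval 5.19 to 10.7, adjusted p = 0.032). Upon H2A.Z.2 depletion it was 4.91-fold lower (interval 3.79 to 6.44), which did not pass the test against the pooled controls (adjusted p = 0.209), where siCtrl 4 was above siCtrl 3 by 1.54 ± 0.21 on the log2 scale (adjusted p = 1.34e-04). The effect of the H2A.Z.1 siRNA on CA9 with and without the H2A.Z.2 siRNA did not differ past the threshold (adjusted p = 0.11).

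CA12 (chr15:63321378-63381846, minus strand) was at 8.49 and 8.78 CPM with siCtrl 3, 5.20 and 5.22 with siCtrl 4, 0.866 and 0.667 with siH2A.Z.1, 9.33 and 10.4 with siH2A.Z.2 and 1.74 and 1.93 with both siRNAs. Both groups with the H2A.Z.1 siRNA lay well below the other 6 libraries. It was down-regulated upon H2A.Z.1 depletion (-3.18 ± 0.38, adjusted p = 0.00201), upon combined depletion (-1.89 ± 0.32, adjusted p = 0.0128), and by combined against H2A.Z.2 depletion (-2.43 ± 0.31, adjusted p = 0.00148). The first call was kept in all 15 alternative settings.

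Glycolysis splits glucose into pyruvate, and HIF is known to raise most of its enzymes. Of the 13 glycolysis enzymes, 7 were down-regulated upon H2A.Z.1 depletion and none was up-regulated, where 15.7% of all genes were lower and 12.2% higher. Their median log2 fold change was -0.41, with a range of -1.24 to 0.21. Among these 13, the 3 largest differences were in enzymes of the last steps. PKM (chr15:72199029-72231819, minus strand), the pyruvate kinase that ends glycolysis, was at 2699 and 2699.5 CPM with siCtrl 3, 2996 and 2820.1 with siCtrl 4, 1264 and 1248 with siH2A.Z.1, 2424 and 2474 with siH2A.Z.2 and 1414 and 1379.5 with both siRNAs. All 4 libraries with the H2A.Z.1 siRNA lay below the other 6, at 1248 to 1414 CPM against 2424 to 2996. PKM was down-regulated upon H2A.Z.1 depletion (-1.17 ± 0.085, adjusted p = 4.99e-04) and upon combined depletion (-0.98 ± 0.085, adjusted p = 0.00188). ENO1 (chr1:8861000-8879190, minus strand) and ENO2 (chr12:6913745-6923698, plus strand) encode enolases, which make phosphoenolpyruvate for pyruvate kinase. ENO1 was at 2086 and 2037 CPM with siCtrl 3, 2038 and 1903 with siCtrl 4, 1142 and 1162 with siH2A.Z.1, 2094 and 2169 with siH2A.Z.2 and 1215 and 1182 with both siRNAs. ENO2 was at 219.8 and 209 CPM with siCtrl 3, 254 and 254 with siCtrl 4, 99.8 and 100.2 with siH2A.Z.1, 228 and 235 with siH2A.Z.2 and 131 and 134 with both siRNAs. Neither gene had an overlap between libraries with and without the H2A.Z.1 siRNA. Both were down-regulated upon H2A.Z.1 depletion (ENO1 -0.82 ± 0.083, adjusted p = 0.00119, and ENO2 -1.24 ± 0.12, adjusted p = 0.00103) and upon combined depletion (ENO1 -0.72 ± 0.082, adjusted p = 0.00406, and ENO2 -0.80 ± 0.12, adjusted p = 0.00802).

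Among the 13 enzymes, those of earlier steps changed less. PFKM, a phosphofructokinase from a further list given below, acts at an earlier step and fell by more than ENO1. GPI, which turns glucose 6-phosphate into fructose 6-phosphate, was at 352 and 363 CPM with siCtrl 3, 335 and 324 with siCtrl 4, 218 and 240.0 with siH2A.Z.1, 360.3 and 362 with siH2A.Z.2 and 236 and 241 with both siRNAs, and the libraries with the H2A.Z.1 siRNA again did not overlap the others (-0.59 ± 0.097, adjusted p = 0.00628). The aldolase gene ALDOA (-0.48 ± 0.11, adjusted p = 0.0212), the triose phosphate isomerase TPI1 (-0.35 ± 0.079, adjusted p = 0.0176) and the platelet-type phosphofructokinase PFKP (-0.48 ± 0.14, adjusted p = 0.0438) were also down-regulated. The calls of PFKP and TPI1 were lost in 8 and 5 of 15 alternative settings. The hexokinases HK1 and HK2, the liver-type phosphofructokinase PFKL, ALDOC, PGK1 and PGAM1 were not called, with values between -0.41 and 0.21. The glucose transporters SLC2A1 (-0.36 ± 0.11, adjusted p = 0.0554) and SLC2A3 (0.90 ± 0.37, adjusted p = 0.113) were not called either. Some of the 45 genes, glycolytic ones among them, have processed copies in the genome. GENCODE v44 names 93 pseudogenes after 15 of the 45 genes. Of these, 44 are named after the mitochondrial HIF target BNIP3 and 13 after PGAM1. Reads shared with such copies could be lost from or added to the counts of the genes they are named after.

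**Figure D2:**
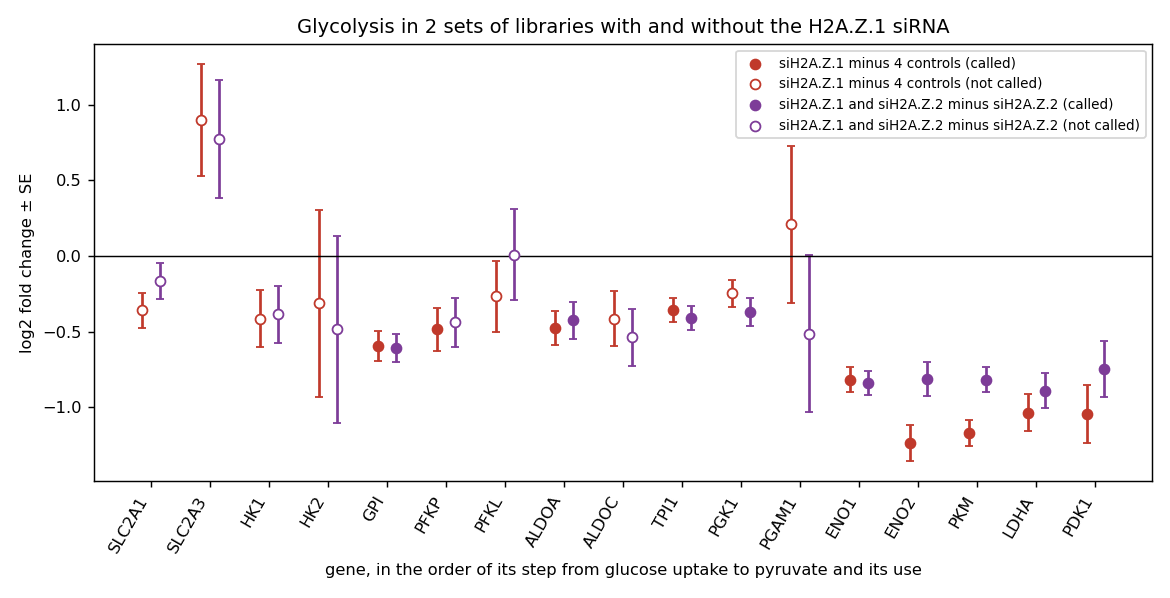
Log2 fold changes ± SE (vertical axis) of glucose transporters, glycolysis enzymes, LDHA and PDK1 in the order of their steps (horizontal axis), for siH2A.Z.1 minus the 4 controls (red) and for both siRNAs minus siH2A.Z.2 (purple). Filled points were called. In both sets of libraries GPI, ALDOA, TPI1, ENO1, ENO2, PKM, LDHA and PDK1 are filled and below 0.

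LDHA and PDK1 decide where pyruvate goes. LDHA (chr11:18394560-18408425, plus strand) makes lactate, and PDK1 (chr2:172555373-172608669, plus strand) blocks pyruvate dehydrogenase and so keeps pyruvate from the mitochondria. LDHA was at 806 and 825 CPM with siCtrl 3, 669.9 and 717 with siCtrl 4, 363 and 379.7 with siH2A.Z.1, 885 and 1004 with siH2A.Z.2 and 535 and 489 with both siRNAs, and PDK1 was at 32.00 and 33.4 CPM with siCtrl 3, 43.9 and 47.4 with siCtrl 4, 18.7 and 19.6 with siH2A.Z.1, 38.1 and 40.6 with siH2A.Z.2 and 23.5 and 23.6 with both siRNAs. In each gene the 4 libraries with the H2A.Z.1 siRNA lay below the other 6. LDHA was down-regulated upon H2A.Z.1 depletion (-1.03 ± 0.12, adjusted p = 0.00189) and upon combined depletion (-0.53 ± 0.11, adjusted p = 0.0245). For PDK1 the values were -1.04 ± 0.19 (adjusted p = 0.00948) and -0.71 ± 0.19 (adjusted p = 0.0462). PFKFB3 and PFKFB4 make and remove fructose 2,6-bisphosphate, the activator of phosphofructokinase. PFKFB4 was at 22.0 and 23.3 CPM with siCtrl 3, 42.5 and 39.0 with siCtrl 4, 12.9 and 12.8 with siH2A.Z.1, 25.3 and 24.7 with siH2A.Z.2 and 13.3 and 14.4 with both siRNAs, so both conditions with the H2A.Z.1 siRNA lay below both control siRNAs, which themselves differed (0.85 ± 0.093, adjusted p = 3.03e-05). It was down-regulated upon H2A.Z.1 depletion (-1.31 ± 0.31, adjusted p = 0.0222) and upon combined depletion (-1.17 ± 0.32, adjusted p = 0.0476), as was PFKFB3 (-0.79 ± 0.17 and -0.71 ± 0.18, adjusted p = 0.0176 and 0.0382).

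Of the 4 mitochondrial HIF targets, 2 were down-regulated upon H2A.Z.1 depletion, where 15.7% of all genes were. AK4, a mitochondrial adenylate kinase, was at 68.6 and 76.0 CPM with siCtrl 3, 39.6 and 46.8 with siCtrl 4, 25.4 and 27.9 with siH2A.Z.1, 77.6 and 89.2 with siH2A.Z.2 and 32.6 and 31.2 with both siRNAs, with the 4 libraries carrying the H2A.Z.1 siRNA below the rest (-1.13 ± 0.29, adjusted p = 0.0276). BNIP3, a receptor for the removal of mitochondria by autophagy, changed by -0.54 ± 0.13 (adjusted p = 0.0211). Its relative BNIP3L (-0.29 ± 0.17, adjusted p = 0.241) and FAM162A (-0.37 ± 0.12, adjusted p = 0.0527) were not called, although FAM162A was down-regulated upon combined depletion (-0.69 ± 0.12, adjusted p = 0.0126).

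Of the 3 tested secreted factors, 2 (VEGFA and STC2) were called higher with siH2A.Z.1 alone and 1 (ADM) was called lower with both siRNAs. Over all genes, 12.2% were called higher in the first comparison and 9.35% lower in the second. VEGFA, the main growth factor for blood vessels, was up-regulated upon H2A.Z.1 depletion (56.8 and 58.5 CPM against 41.0 to 43.3 in the controls, 0.43 ± 0.087, adjusted p = 0.0126). Upon combined depletion it was at 44.7 and 42.0 CPM, lower than upon H2A.Z.1 depletion (-0.39 ± 0.088, adjusted p = 0.043). STC2, a glycoprotein hormone, was at 0.782 and 1.200 CPM with siCtrl 3, 2.67 and 2.45 with siCtrl 4, 5.63 and 7.38 with siH2A.Z.1, 1.77 and 2.28 with siH2A.Z.2 and 2.55 and 2.78 with both siRNAs. Both H2A.Z.1-depleted libraries lay above the other 8 (1.86 ± 0.45, adjusted p = 0.024), on low counts and with siCtrl 4 above siCtrl 3 (1.40 ± 0.27, adjusted p = 0.00176). ADM, which encodes the vasodilator adrenomedullin, was at 1.37 and 1.75 CPM with siCtrl 3, 1.51 and 1.30 with siCtrl 4, 1.35 and 0.762 with siH2A.Z.1, 1.45 and 1.14 with siH2A.Z.2 and 0.491 and 0.454 with both siRNAs, from 11 and 8 counts upon combined depletion. It was down-regulated upon combined depletion (-1.60 ± 0.29, adjusted p = 0.015) and not called upon H2A.Z.1 depletion (-0.50 ± 0.32, adjusted p = 0.284).

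Of the 5 collagen-modifying genes, 3 were down-regulated upon H2A.Z.1 depletion and none upon combined depletion, where 15.7% and 9.35% of all genes were. P4HA2, a collagen prolyl hydroxylase subunit, was at 108 and 107 CPM with siCtrl 3, 164 and 164 with siCtrl 4, 56.5 and 58.2 with siH2A.Z.1, 130.1 and 135 with siH2A.Z.2 and 96.4 and 87.5 with both siRNAs. The 2 libraries with siH2A.Z.1 alone were lowest (-1.251 ± 0.23, adjusted p = 0.00861), and the difference upon combined depletion was -0.54 ± 0.22 (adjusted p = 0.14). LOXL2, which crosslinks collagen, was at 57.7 and 55.5 CPM with siCtrl 3, 124 and 106 with siCtrl 4, 31.3 and 29.4 with siH2A.Z.1, 60.3 and 55.5 with siH2A.Z.2 and 32.7 and 35.7 with both siRNAs, with all 4 libraries of the H2A.Z.1 siRNA below the others (-1.51 ± 0.37, adjusted p = 0.025). Its siCtrl 4 libraries lay above siCtrl 3 by 1.02 ± 0.097 (adjusted p = 1.03e-05). P4HA1 was down-regulated upon H2A.Z.1 depletion (-0.73 ± 0.11, adjusted p = 0.00409) and was higher upon combined than upon H2A.Z.1 depletion (0.55 ± 0.10, adjusted p = 0.0241). The lysyl hydroxylase PLOD2 (-0.91 ± 0.28, adjusted p = 0.0532) and the lysyl oxidase LOX (-0.51 ± 0.31, adjusted p = 0.249) were not called.

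None of the 6 other HIF targets was called upon H2A.Z.1 depletion, where 15.7% of all genes were lower and 12.2% higher. ANKRD37, NDRG1, DDIT4, an inhibitor of mTORC1 signalling, MXI1, HILPDA, which binds lipid droplets, and TMEM45A lay between -0.80 and 0.95. TMEM45A was at 28.3 and 28.1 CPM with siCtrl 3, 13.3 and 13.5 with siCtrl 4, 43.8 and 37.1 with siH2A.Z.1, 46.5 and 50.5 with siH2A.Z.2 and 68.1 and 61.0 with both siRNAs. All 6 depleted libraries lay above the 4 controls, and it was the only one of the 44 genes up-regulated upon combined depletion (1.66 ± 0.35, adjusted p = 0.0228). The values upon single depletion were 0.95 ± 0.36 for H2A.Z.1 and 1.247 ± 0.35 for H2A.Z.2 (adjusted p = 0.0891 and 0.207).

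How far the controls set these calls was measured by comparing siCtrl 4 with siCtrl 3. Of the 44 genes, 17 were higher and 6 lower with siCtrl 4, where 17.2% of all genes were higher and 17.3% lower. HK2, the inducible hexokinase, was at 38.9 and 37.9 CPM with siCtrl 3, 149.9 and 139 with siCtrl 4, 71.5 and 76.3 with siH2A.Z.1, 89.4 and 83.5 with siH2A.Z.2 and 60.1 and 64.3 with both siRNAs, so that every depleted library lay between the 2 control siRNAs (siCtrl 4 against siCtrl 3, 1.91 ± 0.084, adjusted p = 4.42e-08). PGAM1, the phosphoglycerate mutase, was at 118 and 136 CPM with siCtrl 3, 41.5 and 43.0 with siCtrl 4, 94.3 and 103 with siH2A.Z.1, 132 and 141 with siH2A.Z.2 and 99.6 and 92.6 with both siRNAs and went the other way (-1.58 ± 0.083, adjusted p = 1.32e-07). SLC2A3 (1.15 ± 0.092) and NDRG1 (1.04 ± 0.082) were also higher with siCtrl 4 (adjusted p = 3.02e-06 and 2.68e-06). All 10 proliferation genes were lower with siCtrl 4, CCNB1 the most (-1.35 ± 0.082, adjusted p = 3.91e-07). None of them was called upon H2A.Z.1 depletion against the pooled controls, where their sums lay between those of the 2 control siRNAs. Against H2A.Z.2 depletion, 2 of the 10 were lower with siH2A.Z.1 (median -0.54), where 18.4% of all genes were.

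H2A.Z.1 depletion was therefore also tested against each control siRNA alone, with 2 libraries against 2, which leaves the difference between the control siRNAs out of the error. Against both, 18 of the 44 genes were called lower and 7 higher, where 17.2% and 14.4% of all genes were. The 18 are AK4, ALDOA, BNIP3, CA9, CA12, EGLN1, ENO1, ENO2, GPI, LDHA, LOXL2, P4HA1, P4HA2, PDK1, PFKFB3, PFKFB4, PKM and PLOD2. The 7 are VEGFA, EGLN3, STC2, EPAS1, SLC2A3, DDIT4 and TMEM45A. HK2 (0.94 against siCtrl 3 and -0.97 against siCtrl 4), NDRG1 (0.67 and -0.37) and PGAM1 (-0.37 and 1.217) were called in opposite directions. The same held for 296 of all 15480 genes tested. Against siCtrl 3 alone, 19 genes were lower and 9 higher, and against siCtrl 4 alone 30 were lower and 8 higher. The shares of all genes called against 1 control siRNA are not given here, so this shift is not shown to be particular to these genes. Upon combined depletion 19 were lower and 1 (TMEM45A) higher against each, where 12.4% and 11% of all genes were. Upon H2A.Z.2 depletion CA9 was lower and TMEM45A higher against each, where 1.67% and 3.87% of all genes were.

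**Figure D3:**
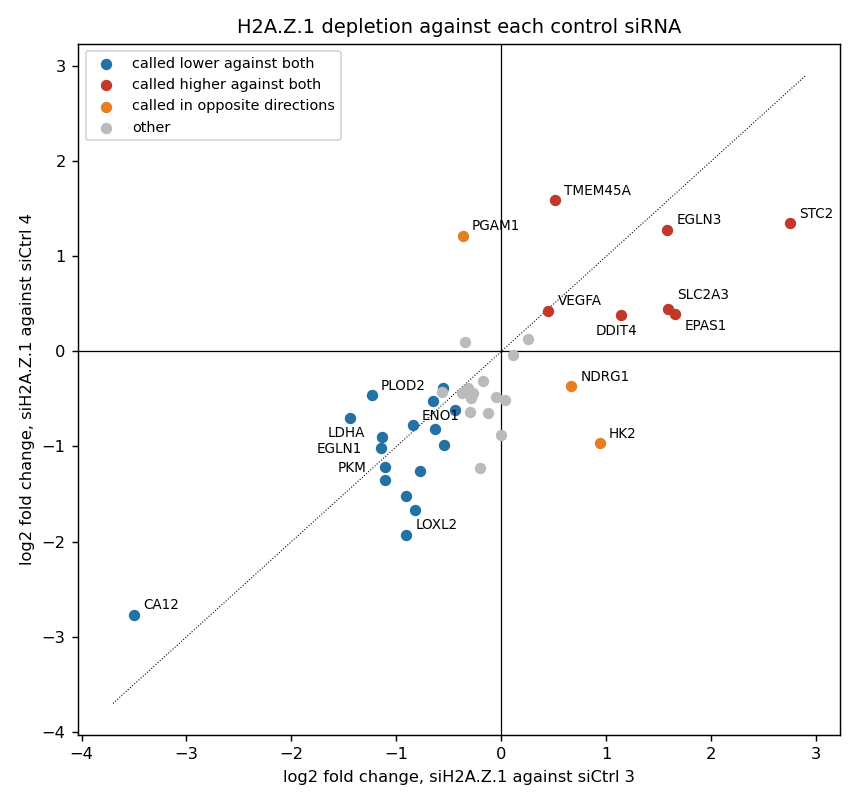
Log2 fold change upon H2A.Z.1 depletion against siCtrl 3 (horizontal axis) and against siCtrl 4 (vertical axis) for 43 genes, 1 point per gene, with CA9 left out for its 3 counts and equality dotted. Blue and red points were called lower or higher against both, and HK2, NDRG1 and PGAM1 (orange) were called in opposite directions.

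The H2A.Z.1 siRNA was also measured on top of the H2A.Z.2 siRNA. The combined depletion was compared with H2A.Z.2 depletion, so both sides carry the H2A.Z.2 siRNA, and the means compared share no library with H2A.Z.1 depletion against controls. The spread came from the fit of all 10 libraries in 4 groups, controls included. With the control siRNAs as separate groups 30 genes were called instead of 17, and the share of all genes called in that fit is not given here. Of the 44 genes, 17 were lower and none was higher, where 9.05% of all genes were lower and 4.77% higher, with a median of -0.44. H2A.Z.1 depletion against controls (the first set) and this comparison (the second set) had 13 down-regulated genes in common, 65.0% of the 20 of the first and 76.5% of the 17 of the second. These were EGLN1, CA12, GPI, ALDOA, TPI1, ENO1, ENO2, PKM, LDHA, PDK1, BNIP3, AK4 and P4HA1. Both sets carry the same H2A.Z.1 siRNA, and the overlap over all genes was not counted. The 2 percentages are therefore not shown to be particular to these genes. In the second set the differences were -0.82 ± 0.083 for PKM (adjusted p = 5.16e-04), -0.84 ± 0.079 for ENO1 (adjusted p = 4.24e-04), -0.89 ± 0.12 for LDHA (adjusted p = 0.00153) and -1.39 ± 0.27 for AK4 (adjusted p = 0.0103). PGK1, FAM162A, ADM and PLOD2 were lower in the second set only, which is no test of a difference between the sets. Leaving out 1 of its 4 libraries left 5 to 9 genes, and CA12, ENO1, ENO2, PKM and LDHA were called each time.

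The difference between the sets was tested as an interaction, the effect of the H2A.Z.1 siRNA with minus without the H2A.Z.2 siRNA. EdgeR called none of the 44 genes, where 0.0667% of all genes were called higher and 0.0728% lower. Of the 44, 9 had an unadjusted p under 0.05, against 1641 of all 16486 genes tested, and DESeq2 called 5, against 329 of the 23089 genes of the table. The values were 0.60 ± 0.13 for EGLN1 (adjusted p = 0.126) and -1.38 ± 0.30 for EGLN3 (adjusted p = 0.124). Added to H2A.Z.1 depletion, the H2A.Z.2 siRNA gave 3 higher genes (HIF1A, EGLN1 and P4HA1) and 2 lower (EGLN3 and VEGFA), where 2.64% of all genes were higher and 1.15% lower. Without any 1 of the 4 libraries of that comparison, none of the 5 was called. In the direct comparison of the single depletions, 21 genes were lower with siH2A.Z.1 than with siH2A.Z.2 and 5 were higher, where 18.4% and 13.9% of all genes were. The 5 were EPAS1 (1.30 ± 0.43), EGLN3 (1.04 ± 0.22), SLC2A3 (1.45 ± 0.40), STC2 (1.65 ± 0.48) and DDIT4 (1.45 ± 0.33).

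Further genes of the same pathways came from fixed lists, to be read against the 15.7% of all genes called lower and the 12.2% called higher upon H2A.Z.1 depletion. Of 29 tested further HIF targets, 11 were down-regulated and 2 up-regulated upon H2A.Z.1 depletion. Those that fell included the muscle-type glycogen synthase GYS1 (-1.68 ± 0.12, adjusted p = 4.33e-04) and GPRC5A (-1.58 ± 0.26, adjusted p = 0.00676). VLDLR, a lipoprotein receptor (1.33 ± 0.085, adjusted p = 3.84e-04), and INSIG2 (0.41 ± 0.098, adjusted p = 0.0217) rose. Of 32 further genes of glucose metabolism, 9 were down-regulated and none up-regulated, led by the pyruvate dehydrogenase kinase PDK3 (-2.27 ± 0.20, adjusted p = 8.20e-04), SLC2A6 (-1.16 ± 0.27, adjusted p = 0.0198) and the muscle-type phosphofructokinase PFKM (-0.98 ± 0.12, adjusted p = 0.0025). Of 16 HIF regulators, 4 were up-regulated (25.0%) and 1 down-regulated (6.25%). HIF1AN, the asparaginyl hydroxylase that blocks HIF (0.64 ± 0.093, adjusted p = 0.00424), the coactivator EP300 (0.61 ± 0.097, adjusted p = 0.00564), TCEB1, a part of the VHL ubiquitin ligase (0.61 ± 0.13, adjusted p = 0.0136), and the coactivator CREBBP (0.48 ± 0.10, adjusted p = 0.016) rose, and the chaperone HSP90AB1 fell (-0.44 ± 0.13, adjusted p = 0.0489). Upon H2A.Z.2 depletion, VLDLR was the only called gene of these 3 lists (0.87 ± 0.086, adjusted p = 0.0228). Upon combined depletion, 7 further HIF targets, 4 genes of glucose metabolism and 1 HIF regulator were down-regulated, and 1, 3 and 3 were up-regulated, where 9.35% of all genes were called lower and 7.77% higher. For glucose metabolism these counts are 12.5% lower and 9.38% higher, close to all genes.

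The core of the hypoxia response element, ACGTG or GCGTG on either strand, was searched in the promoters of RefSeq (GRCh38.p14). Each window ran from 250 bases before to 50 after 1 annotated start of the gene. Of the 45 genes, 39 matched an entry by symbol, and BNIP3L, HILPDA, LOXL2, NDRG1, SLC2A3 and VEGFA did not. A core was in 29 of the 39 (74.4%), against 48.4% of all 27305 promoters and 56.2% of 15345 promoters of protein-coding genes, and 35.9% held 2 or more cores against 23.3% of all and 28.6% of those of protein-coding genes. By call upon H2A.Z.1 depletion, 15 of 19 down-regulated genes (78.9%) and 12 of 17 that were not called (70.6%) held one, while 2 or more were held by 26.3% of the down-regulated and 47.1% of the genes not called. These genes were chosen by name, many of them as HIF targets, beside HIF subunits, prolyl hydroxylases and glycolysis enzymes. The shares are therefore not rates of HIF targets alone, and a letter match is not a binding site. The promoters of CA9, EGLN1, ENO1 and LDHA, all lower upon H2A.Z.1 depletion, are shown to let the cores be seen in place, with the cores in capitals and each window read on the strand of its gene.
CA9, chr9:35673678-35673977, plus strand: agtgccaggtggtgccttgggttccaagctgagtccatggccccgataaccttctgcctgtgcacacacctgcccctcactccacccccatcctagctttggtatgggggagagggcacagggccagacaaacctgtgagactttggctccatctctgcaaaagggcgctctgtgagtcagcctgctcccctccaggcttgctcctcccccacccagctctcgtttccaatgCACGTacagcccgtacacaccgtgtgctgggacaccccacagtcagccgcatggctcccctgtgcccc
EGLN1, chr1:231422238-231422537, minus strand: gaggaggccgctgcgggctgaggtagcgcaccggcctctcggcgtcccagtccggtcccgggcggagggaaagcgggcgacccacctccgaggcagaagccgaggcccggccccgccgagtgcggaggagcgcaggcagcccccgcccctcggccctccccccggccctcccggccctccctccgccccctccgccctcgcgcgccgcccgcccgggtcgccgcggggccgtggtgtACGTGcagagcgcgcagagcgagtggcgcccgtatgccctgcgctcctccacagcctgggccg
ENO1, chr1:8878637-8878936, minus strand: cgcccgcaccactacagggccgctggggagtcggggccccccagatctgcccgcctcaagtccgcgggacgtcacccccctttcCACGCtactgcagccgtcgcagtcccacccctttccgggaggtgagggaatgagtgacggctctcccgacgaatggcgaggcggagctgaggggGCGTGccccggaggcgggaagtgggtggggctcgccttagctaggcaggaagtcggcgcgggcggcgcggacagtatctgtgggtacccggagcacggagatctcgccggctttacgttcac
LDHA, chr11:18394313-18394612, plus strand: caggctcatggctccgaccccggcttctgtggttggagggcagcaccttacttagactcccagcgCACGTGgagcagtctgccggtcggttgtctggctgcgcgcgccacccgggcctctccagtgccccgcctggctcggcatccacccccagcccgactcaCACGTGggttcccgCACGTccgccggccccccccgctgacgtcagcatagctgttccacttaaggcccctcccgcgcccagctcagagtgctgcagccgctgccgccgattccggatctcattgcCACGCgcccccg
CA9 and EGLN1 held 1 core each, centred at -16 and -11 from the annotated start, and ENO1 held 2, at -164 and -70. LDHA held 6, of which 4 are the palindrome CACGTG read on both strands. PKM held 1 core, while PDK1, TPI1, PFKP and P4HA2, down-regulated as well, held none in this window. P4HA2 is annotated at chr5:132190147-132295315 on the minus strand, and its window (chr5:132227042-132227341) lay inside the gene. Other annotated starts were not searched.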

How the data were processed

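Total RNA of 10 U2OS libraries was sequenced. Per the labels and the study's methods, the authors aligned strand-specific paired-end reads to hg38 with STAR and counted reads per RefSeq gene with HTSeq 0.6.1 using strand, and SAMtools and DESeq2 1.22.1 were named in the submitters' processing notes. The count table deposited by the authors holds raw counts for 23089 genes. The 3 further deposited tables hold the authors' own DESeq2 comparisons (log2 fold changes, standard errors, Wald statistics, p-values) with raw and normalized counts, and were not used here.

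Counts were tested in R 4.3.3 with edgeR 4.0.16 (TMM factors, filterByExpr, quasi-likelihood F test, two-sided), with limma 3.58.1 loaded and DESeq2 1.42.0 as an alternative. As in the study's methods, the 4 control libraries formed 1 group for each depletion. All 10 libraries in 4 groups gave the direct contrasts and the interaction, and a fit in 5 groups gave siCtrl 4 against siCtrl 3. P-values were adjusted over all genes tested, at a threshold of 0.05 and the study's fold limit, 0.322 on the log2 scale (for the interaction, 0.05 alone). Each standard error is the size of the log2 fold change over the root of its F statistic. Of the tests, only H2A.Z.1 depletion against controls was run first on simulated counts. These gave the 4 controls 1 common mean, so a difference between the control siRNAs was not simulated. An exact permutation test of 2 against 4 libraries cannot go below p = 0.0667, so none was run. Sequence, position and figure steps used Python 3.11.15, numpy 2.4.6, scipy 1.17.1, pandas 2.3.3 and matplotlib 3.10.9, with GENCODE v44 and hg38, the build of the counts.

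The genes and lists were chosen with earlier results of these data known. Values in every library are given for HIF1A, EPAS1, ARNT, H2AFZ and H2AFV, for the called genes with the largest changes (up to 8 per depletion), for up to 8 genes called in both sets of libraries with the H2A.Z.1 siRNA, and for up to 4 genes called between the control siRNAs. From the further lists, up to 3 called genes per direction are named, except that the 4 HIF regulators that rose are all named, after their values were seen, and some genes of these lists are not reported here by name. The alternatives were RLE size factors, scaling by library size only, no low-count filter, DESeq2, the replicate number as a block, a fold change above 2, each control siRNA alone, 1 fit in 5 groups, and leaving out each library. Depth allows counting error to be named where a group held few counts (CA9, exact 95% interval).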

Additional observations from a re-analysis of the deposited data

How the results depend on the processing

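The number of genes called (of 44) upon H2A.Z.1 depletion was 23, and it was 13 at a fold change above 2, 38 with siCtrl 4 alone as control and 7 to 24 when 1 library was left out. Upon H2A.Z.2 depletion it was 0, and it was 2 with DESeq2, 9 with siCtrl 3 alone, 19 with siCtrl 4 alone, 10 in 1 fit of 5 groups and 0 when 1 library was left out. Upon combined depletion it was 17, and it was 8 with the replicate block, 5 at a fold change above 2, 30 with siCtrl 3 alone, 28 with siCtrl 4 alone, 27 in 1 fit of 5 groups and 0 to 17 when 1 library was left out. For H2A.Z.1 against H2A.Z.2 depletion it was 26, with 14 at a fold change above 2 and 15 to 19 when 1 library was left out. For combined against H2A.Z.1 depletion it was 5, with 2 without the low-count filter, 10 with DESeq2, 2 with the replicate block, 0 at a fold change above 2, 18 in 1 fit of 5 groups and 0 when 1 library was left out. For combined against H2A.Z.2 depletion it was 17, with 11 by library size only, 4 at a fold change above 2, 30 in 1 fit of 5 groups and 5 to 9 when 1 library was left out. The interaction gave 0, with 5 by DESeq2, 15 in 1 fit of 5 groups and 0 when 1 library was left out. For siCtrl 4 against siCtrl 3 it was 23, with 10 at a fold change above 2 and 19 to 23 when 1 library was left out. A stricter fold change can only remove calls. The causes of the other shifts were not tested. The shares of all genes called are not given beside these counts, so the shifts are not shown to be particular to the 44 genes. With scaling by library size only, the median over all genes upon H2A.Z.1 depletion went from -0.023 to 0.078 (log2). None of the 1358 values of called genes under these settings changed sign, and 307 no longer passed the threshold. Both counts include the fold change above 2, which uses the values of the main test. There no sign could change, and smaller changes were bound to miss. The replicate numbers share only a number. Deviations of same-numbered libraries from their condition's mean correlated between -0.29 and 0.28 over 10 pairs of conditions, so the paired fit with the replicate block is given only here. With it, 18 genes were called upon H2A.Z.1 depletion, all of them among the 23, 0 upon H2A.Z.2 depletion, 24 for H2A.Z.1 against H2A.Z.2 depletion, 16 for combined against H2A.Z.2 depletion, 0 for the interaction and 24 for siCtrl 4 against siCtrl 3, which hold all 23. When a condition was left with 1 library, that library was assumed to vary like the others. Low counts limit CA9, ADM, STC2 and ANGPTL4.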
